A study of Mus musculus with 3 samples.

Results

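The genes described here are 40 genes of the cell division cycle, of the 32285 genes counted in single-cell RNA-Seq of mouse lung. They were chosen by name, and every one of them was found in all 3 libraries. A mitotic set of 24 genes works from G2 to the end of cell division, and an S phase set of 16 genes works in the copying of DNA. The question put to the data was how much RNA of each set the libraries and cell types held, whether the sets moved together, and whether single genes stood for many.

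The labels give the strain C57BL/6J for every sample, and the methods list CD45.1 mice as B6.SJL-Ptprca Pepcb/BoyJ. Left lungs of CD45.2 donors had been placed in CD45.1 recipients after 60 minutes at 4 °C and a further 45 minutes at 28 °C, and were taken after 2 hours or 3 days of reperfusion, while the naive left lungs came from mice without surgery. Cells of 2 mice were pooled into each library, and each condition had 1 library, so no p-value is given and every interval covers counting error only. The methods describe a sort for recipient cells, and the descriptions repeat it for the naive lungs, in which no recipient cells exist. Donor and recipient shared the B6 background, so the grafts were not foreign tissue apart from the CD45 allele.

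A dividing cell first duplicates its DNA. Before that step the MCM proteins (Mcm2 to Mcm7) are loaded on the origins as the helicase, with the help of Cdc6, and Cdc45 and the GINS subunit Gins2 then switch the helicase on. Pcna, the sliding clamp of the polymerases, and the nucleotide enzymes Rrm1, Rrm2, Tyms and Tk1 serve the copying itself, whereas Uhrf1 and Hells restore DNA methylation and chromatin behind the fork. The mitotic genes follow: the kinase Cdk1 with the cyclins Ccna2, Ccnb1 and Ccnb2, the kinases Plk1, Aurka and Aurkb, the kinetochore and checkpoint genes Cenpa, Cenpe, Cenpf, Bub1 and Bub1b, the spindle genes Kif11, Kif20b, Kif23, Tpx2, Nusap1 and Hmmr, and Cdc20 and Ube2c, which mark cyclins for destruction. In the lung, resident alveolar macrophages are known to renew themselves locally, activated lymphocytes divide after priming, and neutrophils arrive as cells that no longer divide.

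Genes of the G2 and M phases are known for promoters with CCAAT boxes and a cell cycle gene homology region (CHR), and S phase genes for E2F elements. The promoters of 5 members are printed to show both kinds, each as 300 bases on the sense strand, from 250 bases before to 50 bases after the start of the gene, as given by RefSeq on GRCm38.p6. Capitals mark every CCAAT box (CCAAT or ATTGG), CHR (TTTGAA or TTCAAA) and E2F element (TTTCCCGC, GCGGGAAA, TTTGGCGC or GCGCCAAA). Cdk1, Top2a and Mki67 hold several CCAAT boxes with a CHR. Cks2, the mitotic gene with the most RNA in these libraries, holds CCAAT boxes without a CHR, and Mcm6 holds E2F elements.
Cdk1 (chr10:69352863-69353162, minus strand): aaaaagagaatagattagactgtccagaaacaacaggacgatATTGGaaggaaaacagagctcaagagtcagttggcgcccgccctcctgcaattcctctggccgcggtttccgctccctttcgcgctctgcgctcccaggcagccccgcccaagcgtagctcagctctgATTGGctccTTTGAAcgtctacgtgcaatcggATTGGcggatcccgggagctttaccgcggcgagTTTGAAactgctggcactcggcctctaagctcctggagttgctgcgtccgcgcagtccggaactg
Top2a (chr11:99024140-99024439, minus strand): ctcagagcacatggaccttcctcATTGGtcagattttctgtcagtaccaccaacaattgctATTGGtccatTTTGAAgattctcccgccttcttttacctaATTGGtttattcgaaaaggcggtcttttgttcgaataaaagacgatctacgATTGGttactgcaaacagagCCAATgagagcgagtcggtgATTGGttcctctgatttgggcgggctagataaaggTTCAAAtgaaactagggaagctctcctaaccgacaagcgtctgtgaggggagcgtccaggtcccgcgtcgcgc
Mki67 (chr7:135716330-135716629, minus strand): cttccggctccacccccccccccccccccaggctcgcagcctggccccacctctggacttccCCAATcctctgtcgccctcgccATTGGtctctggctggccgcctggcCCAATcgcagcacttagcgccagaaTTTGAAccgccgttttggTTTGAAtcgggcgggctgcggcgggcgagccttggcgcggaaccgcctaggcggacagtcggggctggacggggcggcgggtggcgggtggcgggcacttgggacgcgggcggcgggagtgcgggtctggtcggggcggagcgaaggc
Cks2 (chr13:51644982-51645281, plus strand): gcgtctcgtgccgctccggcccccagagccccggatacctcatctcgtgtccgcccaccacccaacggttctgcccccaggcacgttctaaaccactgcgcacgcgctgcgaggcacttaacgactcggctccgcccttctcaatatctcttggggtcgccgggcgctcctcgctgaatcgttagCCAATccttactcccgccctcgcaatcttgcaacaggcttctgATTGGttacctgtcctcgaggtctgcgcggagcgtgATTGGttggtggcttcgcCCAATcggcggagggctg
Mcm6 (chr1:128359656-128359955, minus strand): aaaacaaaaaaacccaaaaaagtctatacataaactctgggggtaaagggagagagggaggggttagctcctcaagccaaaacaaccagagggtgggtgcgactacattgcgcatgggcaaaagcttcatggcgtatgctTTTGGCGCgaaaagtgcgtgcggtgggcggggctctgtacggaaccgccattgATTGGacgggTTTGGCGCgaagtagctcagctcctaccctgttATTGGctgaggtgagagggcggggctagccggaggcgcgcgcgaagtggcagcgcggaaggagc

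Promoters were found for 35 of the 40 members, and Ccna2, Aurkb, Tpx2, Mcm4 and Gins2 had none in the table. Among the 21 promoters of mitotic members, 18 held a CCAAT box, 15 held a CHR and 14 held both. A CCAAT box stood in 37.4% of all 32851 promoters of the same length, a CHR in 17.9% and both in 6.95%. A CCAAT box also stood in 12 of 16 promoters of S phase members (75%), and a CHR in 2. The E2F letters stood in 6 of those 16, in 0 of 21 promoters of mitotic members and in 1.56% of all promoters. None of the motifs contains another, and both strands were searched. The matches describe letters in these windows and were not tied to any value below.

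The naive library held 2422 cells within the limits of the methods (over 200 and under 6000 genes, under 25000 unique molecular identifiers (UMIs) and under 10% mitochondrial UMIs), the 2-hour library 10283 and the 3-day library 8324. The median UMI count of these cells was 7298.5, 878 and 5716.5, in the same order. Levels are therefore given as counts per 1000000 UMIs of the same cells (CPM), with an exact 95% Poisson interval in parentheses. The naive counts came from Cell Ranger 7.1.0 and the transplant counts from 6.0.0, and genes with over 100 kb of introns were 1.88 higher on the log2 scale in the naive library than at 3 days (median), compared with 0.10 lower for genes with under 10 kb. Of the members, 17 lie under 10 kb, 23 between 10 and 100 kb and 0 over 100 kb. Genes with 10 to 100 kb of introns had a median log2 ratio of naive to 3 days of 0.44. The median was 0.26 for the 23 members of that class and -0.13 for the 17 members under 10 kb. The contrasts with naive therefore cannot be told apart from the counting. Between libraries, 1 to 23 barcodes were shared. Cells were clustered without the members, the other cell cycle lists used here and the histone genes, and clusters were named from marker genes. Cycle genes outside these lists were not left out, so the clusters may still depend on the cycle. Almost every cluster came mostly from 1 library and may stand for that library rather than a cell type. In the order naive, 2 hours and 3 days, B-like cells were mainly clusters 12, 4 and 3, T-like cells 11, then 1 and 19, then 8 and 18, and NK-like cells 13, 6 and 20. Monocyte-like cells were mainly clusters 26, 10, then 7 and 15, and neutrophil-like cells 16, then 5 and 17, then 2. Cluster 7 scored highest for classical monocyte markers, and clusters 26, 10 and 15 for nonclassical ones. Contrasts of monocyte-like cells with 3 days thus compare different mixtures of monocyte subsets. Cluster 18 (355 cells at 3 days) had Ikzf2, Icos, Ctla4 and Il5, a marker of type 2 innate lymphoid cells, among its top genes. The other T-like clusters did not, so contrasts of T-like cells with 3 days may also compare different mixtures.

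Summed over all cells within the limits, the mitotic set stood between 276 and 308 CPM in the 3 libraries. It was 276 CPM (269 to 284) in naive lungs, 308 CPM (297 to 319) at 2 hours and 288 CPM (284 to 292) at 3 days. The S phase set was 239 CPM (232 to 246), 249 CPM (240 to 259) and 268 CPM (264 to 272). These sums rested on very few genes. Of the mitotic UMIs, 67.0% in naive lungs, 83.3% after 2 hours and 73.2% after 3 days belonged to Cenpa, Cks2 and Kif23. Without these 3 genes, a choice made after the values were seen, the other 21 mitotic members stood at 91.2 CPM in naive lungs, 51.4 CPM at 2 hours and 77.2 CPM at 3 days. Pcna and Mcm4 held 45.7%, 55.9% and 54.3% of the S phase UMIs.

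**Figure D1:**
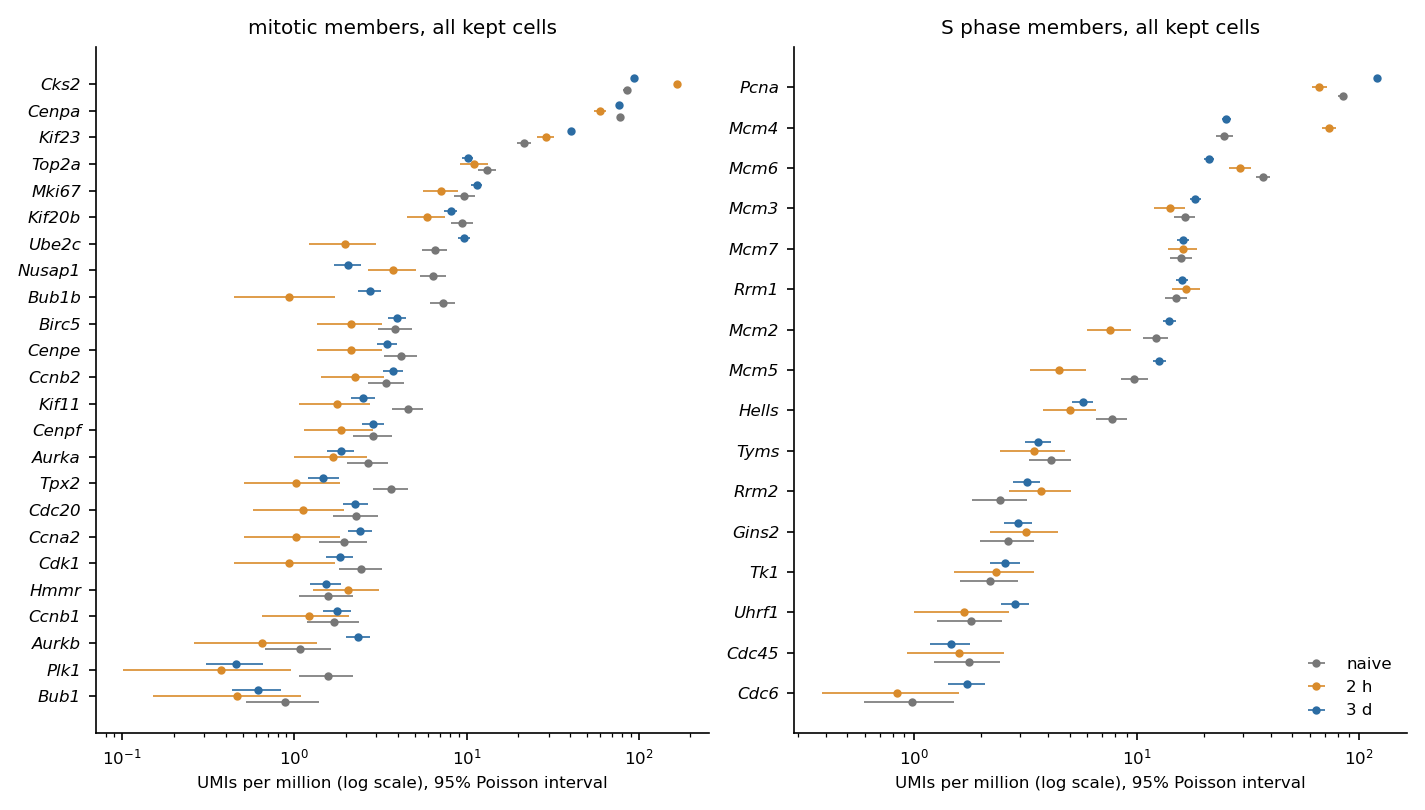
CPM of the 24 mitotic members (left) and 16 S phase members (right) in all cells within the limits, on a log axis, with 1 point per library (grey naive, orange 2 h, blue 3 d) and 95% Poisson intervals as bars. Cks2, Cenpa and Kif23 lie to the right of the other mitotic members in every library, and Mcm4 at 2 h (73.0 CPM) lies to the right of its naive and 3-day values.

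Cks2 (chr13:51645232-51650660 on mm10, plus strand), a small subunit that binds cyclin-dependent kinases, was the most counted mitotic member. Naive lungs had 85.2 CPM (81.3 to 89.3), the 2-hour library 168 CPM (160.1 to 176) and the 3-day library 93.4 CPM (91.1 to 95.8). The 2-hour library was thus the high one. Cenpa, the histone H3 variant of the centromere, moved the other way, with 78.3, 59.9 and 77.4 CPM. Kif23, a kinesin of the midzone at the end of division, had 21.7 CPM in naive lungs, 28.8 CPM after 2 hours and 40.2 CPM after 3 days, without overlap of the intervals.

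The genes most used to recognise dividing cells were far lower. Top2a, which untangles DNA before the chromosomes part, had 13.2 CPM (11.7 to 14.8) in naive lungs, 11.1 CPM (9.19 to 13.3) at 2 hours and 10.1 CPM (9.37 to 10.9) at 3 days. Mki67, whose protein coats mitotic chromosomes and is the usual stain for proliferation, had 9.71 CPM (8.41 to 11.2), 7.09 CPM (5.58 to 8.87) and 11.5 CPM (10.6 to 12.3). The intervals of Top2a overlapped between neighbouring values, and those of Mki67 overlapped between naive and both transplant libraries. Kif20b, a kinesin of the last step of division, had 9.42, 5.88 and 8.08 CPM. The remaining 18 mitotic members ranged from 0.37 CPM (Plk1 at 2 hours) to 9.64 CPM (Ube2c at 3 days).

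Pcna (chr2:132249162-132253314 on mm10, minus strand) was the most counted S phase member, with 84.4 CPM (80.4 to 88.4) in naive lungs, 66.3 CPM (61.5 to 71.4) at 2 hours and 120.3 CPM (118 to 123) at 3 days. The 3-day library was the high one. The helicase genes did not move as a group, although their proteins work as a ring of 6. Mcm4 was at 24.8, 73.0 and 25.3 CPM, which made the 2-hour library the high one. Mcm6 was at 36.9, 29.2 and 21.1 CPM and so highest in naive lungs. Mcm3 had 16.5, 14.1 and 18.4 CPM, Mcm7 had 15.9, 16.1 and 16.1 CPM, and Rrm1, the large subunit of ribonucleotide reductase, had 15.0, 16.7 and 16.1 CPM. Mcm7 and Rrm1 were thus level across the libraries, with overlapping intervals. Mcm5 was at 9.76, 4.48 and 12.7 CPM, and Mcm2 at 12.2, 7.55 and 14.0 CPM, both lowest at 2 hours.

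A low level over all cells can come from a little RNA in many cells or from much RNA in few, and the members differed in this. For this view the upper limits on genes and UMIs were lifted, because they removed 206 cells (7.84%) of the naive library, 190 (2.23%) of the 3-day library and 0 of the 2-hour library. The removed cells held 26.1% of all naive UMIs but 55.2% of the naive mitotic UMIs, and 8.65% of all UMIs at 3 days but 26.2% of the mitotic ones. Leaving out Cenpa, Cks2 and Kif23, they held 74.8% and 51.8% of the mitotic UMIs. Of the S phase UMIs they held 51.8% and 19.6%.

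The number of different mitotic members seen in a cell split the cells of the naive and 3-day libraries into a large low group and a small high one. Cells with 8 or more of the 24 are called mitotic-rich here, a cut placed after these counts were seen. In the naive library they were 40 of 2628 cells (1.52%, Clopper-Pearson 95% interval 1.09 to 2.07), at 2 hours 6 of 10283 (0.0583%, 0.0214 to 0.127) and at 3 days 73 of 8514 (0.857%, 0.673 to 1.08). Between 6 and 9 members were seen in 9, 9 and 29 cells, so that at 2 hours more cells lay near the cut than the 6 above it. The upper limits would have removed 33 of the 40 naive cells and 34 of the 73 cells at 3 days. A doublet caller marked 0, 0 and 1 of the mitotic-rich cells.

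**Figure D2:**
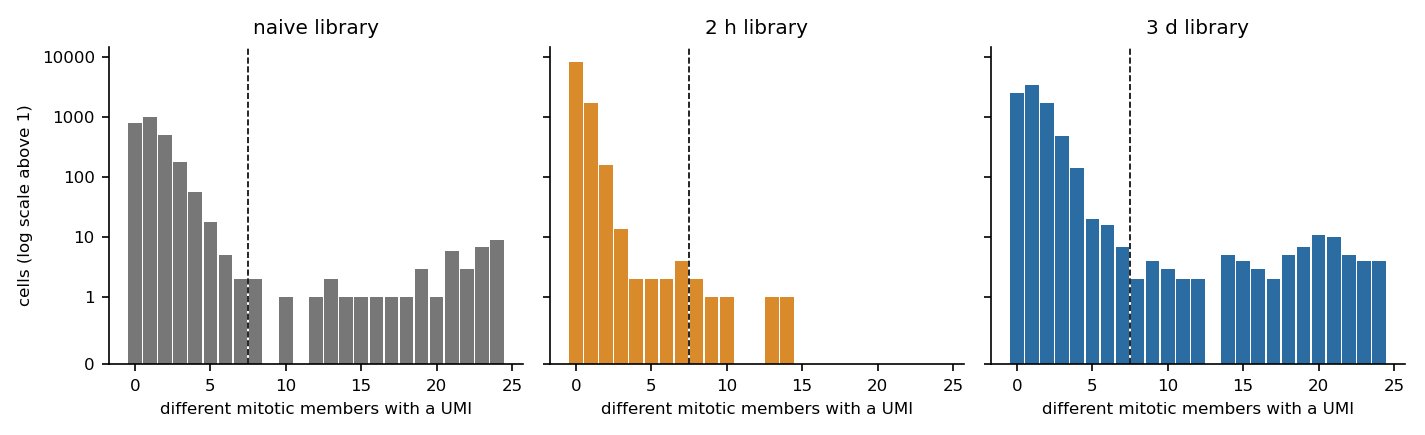
Number of cells (vertical axis, linear below 1 and logarithmic above it) by the number of different mitotic members with a UMI in the cell, for the naive, 2 h and 3 d libraries with no upper limits; the dashed line marks the cut at 8 members. The 2 h library, with a median of 877 UMIs in its other cells, stops at 14 members, whereas cells with all 24 were seen in the naive (9 cells) and 3 d (4 cells) libraries.

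Depth moves with this count. The median UMI count of mitotic-rich cells was 36279 in naive lungs, 4011 at 2 hours and 22848 at 3 days, compared with 7635.5, 877 and 5770 in the other cells. At 1 equal depth, 1000 UMIs drawn from each cell, 3 or more mitotic members were seen in 1.24% of naive cells, 0.225% at 2 hours and 0.580% at 3 days, which is the order of the mitotic-rich cells. For 2 or more members at that depth the shares were 2.63%, 2.20% and 2.67%, with overlapping intervals, so this order was not kept. Cells with fewer UMIs were left out of this view, which were 47, 6291 and 234 cells. In neutrophil-like cells, which should lack mitosis, the shares with 3 or more members were 0.525%, 0% and 0.188%. The naive share came from 2 of 381 cells. Of the naive neutrophil-like cells 2 were mitotic-rich, so this group was not free of such cells. The neutrophil-like share at 2 hours came from 0 of 412 cells, which allows up to 0.728%.

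Within the upper limits the libraries were close to each other at equal depth. Among 500 UMIs drawn from each cell, 2 or more mitotic members were seen in 0.661% (0.378 to 1.07) of naive cells, 0.550% (0.414 to 0.717) of 2-hour cells and 0.757% (0.582 to 0.967) of 3-day cells, with overlapping intervals. The 469 cells with fewer UMIs, all at 2 hours, were left out, so 9814 cells were used there. Before drawing, the shares were 26.6%, 1.84% and 28.4%, lowest in the 2-hour library, which had the lowest depth. In neutrophil-like cells the drawn shares were 1.04% (0.283 to 2.63, 4 of 386 cells), 0.263% and 0.604%. In the naive library the mitotic share of all cells was thus no higher than this background. Without Cenpa, Cks2 and Kif23 the shares were 0.248%, 0.0815% and 0.264% of all cells. The neutrophil-like shares were then 0.259% (1 of 386 cells), 0% and 0%, and these zeros allow up to 0.197% at 2 hours and 0.139% at 3 days. The same view of the S phase set gave 0.578%, 0.540% and 0.925% of all cells, compared with 0%, 0.0658% and 0.0464% of neutrophil-like cells. The naive 0% came from 386 cells and allows up to 0.777%. The S phase set was thus above the neutrophil-like cells at 2 hours and 3 days, and the log2 ratio of 3 days to 2 hours was 0.78 (0.25 to 1.31), compared with 0.46 (-0.09 to 1.01) for the mitotic set. At 1000 UMIs the S phase shares were 2.86% at 2 hours and 2.97% at 3 days, and their log2 ratio was 0.055 (-0.27 to 0.39).

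The mitotic members chose these cells, so the share of mitotic UMIs in them describes the choice and is no test. Mitotic-rich cells had 5.61% of all naive UMIs and 2.75% of those at 3 days, but 55.7% and 33.0% of the mitotic UMIs. Of the mitotic UMIs other than Cenpa, Cks2 and Kif23 they had 81.4% and 69.8%. At 2 hours they had 0.233% of all UMIs, 4.21% of the mitotic ones and 21.8% without those 3 genes. Of these cells, 32 of the 40 naive cells, 2 of the 6 at 2 hours and 48 of the 73 at 3 days also held 8 or more of the 16 S phase members. A further 26 naive and 51 3-day cells held 8 or more S phase members without being mitotic-rich.

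To see which members mark these cells, each gene's UMIs were counted in cells with 8 or more other mitotic members, so that a gene did not choose its own cells. Ccna2, the cyclin of S phase and entry into mitosis, had 97.7% of its naive UMIs and 90.5% of its 3-day UMIs in such cells. Birc5, a subunit of the chromosomal passenger complex, had 96.9% and 89.0%. Cenpf, Bub1, Nusap1 and Top2a were at 97.3%, 96.8%, 80.2% and 84.0% in naive lungs and at 84.8%, 84.2%, 83.4% and 79.5% at 3 days. Mki67 had 88.2% in naive lungs and 64.0% at 3 days. Most UMIs of these genes thus came from at most 40 of 2628 naive cells and 73 of 8514 cells at 3 days. At 2 hours, at a much lower depth, no mitotic member had most of its UMIs in such cells, but many counts were small. Ccna2 had 36.4% of 11 UMIs (exact interval 10.9 to 69.2) and Birc5 30.4% of 23 (13.2 to 52.9). Bub1 had 0% of 5 UMIs (0 to 52.2). The intervals of Ccna2, Birc5 and Bub1 thus still allow most UMIs to lie in such cells. Top2a had 24.4% of 119 UMIs (17.0 to 33.1) and Mki67 17.1% of 76 (9.43 to 27.5), and their intervals do not.

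In naive lungs, 6 mitotic members had most of their UMIs in other cells, and at 3 days Cdc20 (46.0%) joined them. At 3 days Cks2 had 4.56% of its UMIs in the cells with 8 or more other members, Cenpa 9.27%, Kif23 9.53%, Kif20b 14.3% and Aurka, a centrosome kinase, 21.6%. In naive lungs the same genes had 14.9%, 17.6%, 36.0%, 37.8% and 46.6%. Bub1b, a kinase of the spindle checkpoint, had 28.9% in naive lungs and 38.8% at 3 days. At 3 days Cks2 was seen in 80.8% of the cells with 8 or more others and in 28.8% of the rest, whereas Top2a was seen in 97.2% and 3.09%. Depth differs between those groups of cells, as given above.

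S phase members were counted in the same cells, which were chosen by mitotic members and not by S phase members, so their shares are not on equal terms with those of the mitotic set. Rrm2, the small subunit of ribonucleotide reductase, was the most concentrated, with 91.7% of its UMIs in mitotic-rich cells in naive lungs and 82.8% at 3 days. Uhrf1 had 79.6% and 58.5%, Tk1 73.4% and 50.2%, and Tyms 60.7% and 41.5%. The helicase genes and the clamp were lower: Mcm2 had 31.4% and 13.4%, Pcna 23.0% and 8.45%, and Mcm4 22.3% and 6.81%. Pcna was seen in 91.8% of mitotic-rich cells and in 46.3% of all other cells at 3 days.

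**Figure D3:**
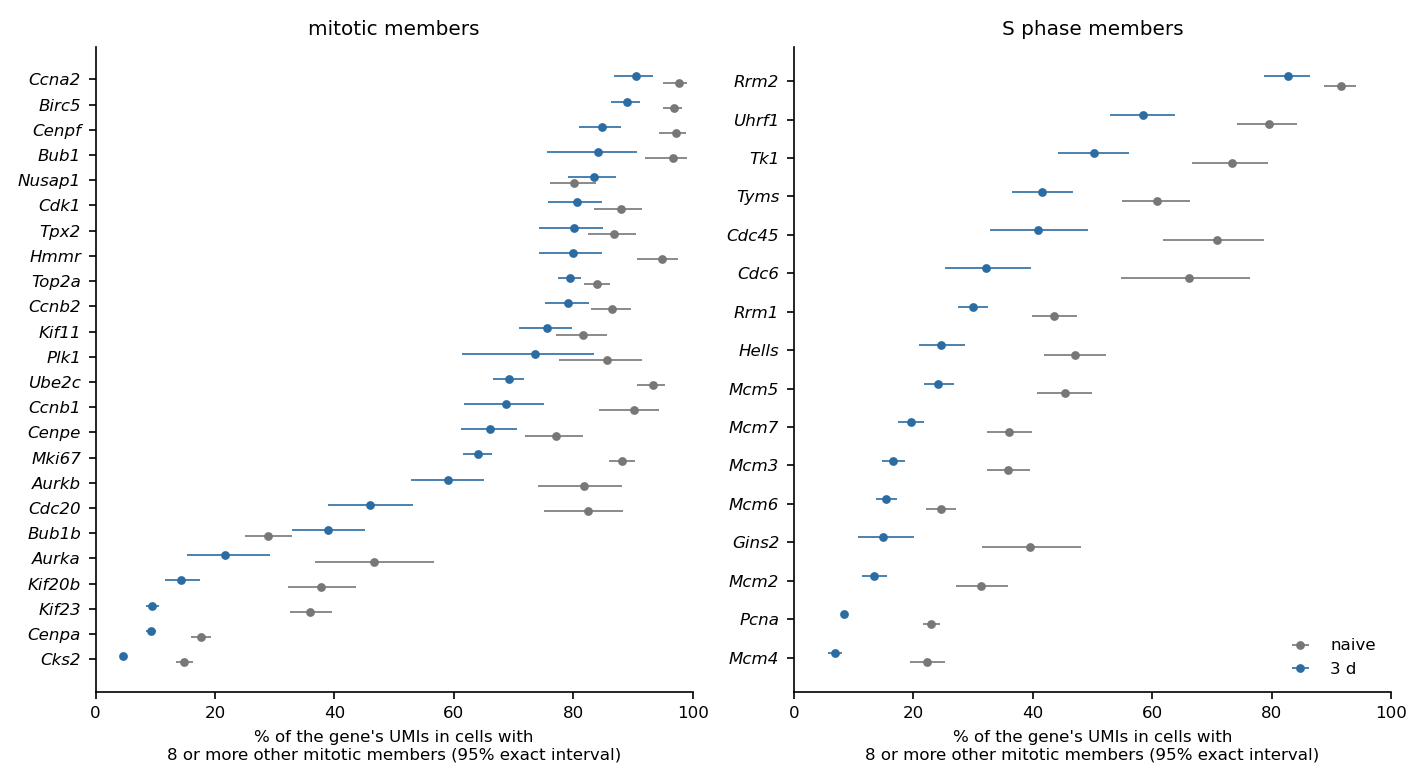
Percent of each gene's UMIs found in cells with 8 or more other mitotic members (horizontal axis, with 95% exact intervals), for mitotic members (left) and S phase members (right) in the naive (grey) and 3 d (blue) libraries. Most mitotic members lie above 60% in both libraries, while Cks2, Cenpa and Kif23 lie below 40% and only 1 S phase member, Rrm2, lies above 60% at 3 d.

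Most mitotic-rich cells were found in few cell types. At 3 days 38 of 909 macrophage-like cells (4.18%, 2.98 to 5.69) and 20 of 149 cells of cluster 25 (13.4%, 8.40 to 19.97) were mitotic-rich. Cluster 25 scored highest for plasmacytoid dendritic markers, but conventional dendritic genes (Mgl2, Ccl17, Cd209a) were among its top genes, so it is given by number. In naive lungs 17 of 278 macrophage-like cells (6.12%, 3.60 to 9.61) and 16 of 596 T-like cells (2.68%, 1.54 to 4.32) were mitotic-rich. These 16 cells were the whole naive part of cluster 18, which held 355 cells at 3 days, 8 of them mitotic-rich. Their name depended on the call. Called singly from marker UMIs, 11 of the 16 were T-like, 1 was NK-like and 4 had no call, and with cycle genes in the clustering all 16 joined the cluster with the markers of cluster 25. At 3 days 9 of 1060 T-like cells (0.849%, 0.389 to 1.61) were mitotic-rich. With cycle genes, 0 naive T-like cells were mitotic-rich, and of the T-like cells at 3 days 1 was. At 2 hours 4 of the 6 cells were T-like, and 1 was with cycle genes in the clustering. The clustering with cycle genes could draw on the members that define mitotic-rich cells, so its counts do not decide their lineage. Its cluster with the markers of cluster 25 took 18 mitotic-rich cells in naive lungs, 4 at 2 hours and 30 at 3 days.

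Other lineages had few or none. Among B-like cells 1 of 555 was mitotic-rich in naive lungs, 0 of 1653 at 2 hours (which allows up to 0.181%) and 4 of 1906 at 3 days. Among NK-like cells the counts were 4 of 519 (0.771%), 1 of 1011 and 0 of 329, the last of which allows up to 0.912%. Monocyte-like cells had 0 in all 3 libraries, of 149, 561 and 1310 cells, and 0 of 1310 allows up to 0.229%. When cells were called singly, however, 11 of 154 naive cells called monocytes and 0 of 19 called macrophages were mitotic-rich, so the split between these lineages in naive lungs depended on the call. Among neutrophil-like cells 2 of 387, 0 of 1598 and 1 of 2156 were mitotic-rich, and the 1 at 3 days was called a doublet. The 2 naive ones were among 9 naive cells of cluster 2, and both also held 8 or more S phase members. With cycle genes in the clustering, which has the limit given above, 0 naive neutrophil-like cells were mitotic-rich, and with cells called singly 2 were. The monocyte-like cells at 3 days had a median of 14668.5 UMIs, compared with 11613 in macrophage-like cells that were not mitotic-rich.

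The 2 macrophage-like populations were not the same cells. In the naive library they were cluster 21, which carries alveolar macrophage genes, and at 3 days clusters 9 and 23, with 20 of 669 and 18 of 239 mitotic-rich cells. The 2-hour library had 7 macrophage-like cells, too few to compare. Within the upper limits the mitotic set was 218 CPM (198 to 239) in naive and 300 CPM (289 to 311) in 3-day macrophage-like cells, but the limits left 107 of 278 naive cells. With no upper limits it was 579 and 426 CPM, the opposite order. The S phase set was 216 and 407 CPM within the limits and 396 and 438 CPM without them.

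Single members of the macrophage-like cells followed the limits as well. Top2a was at 2.46 CPM in naive and 28.4 CPM at 3 days within the limits, and at 62.9 and 49.5 CPM with no upper limits. Mki67 was at 12.3 and 33.2 CPM within the limits, and at 52.3 and 46.0 CPM without them. Naive cells were thus low under the limits and not without them. Mcm5, Cenpa and Bub1b kept their order: Mcm5 was at 1.48 and 21.5 CPM within the limits and at 11.9 and 24.1 CPM without them, and Cenpa was at 9.36 and 48.8 CPM, then 23.3 and 59.2 CPM. Bub1b was higher in naive cells, with 52.2 and 6.97 CPM, then 55.3 and 8.61 CPM. Bub1b holds 39.1 kb of introns, and the part of the counting software in its naive value was not tested.

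**Figure D4:**
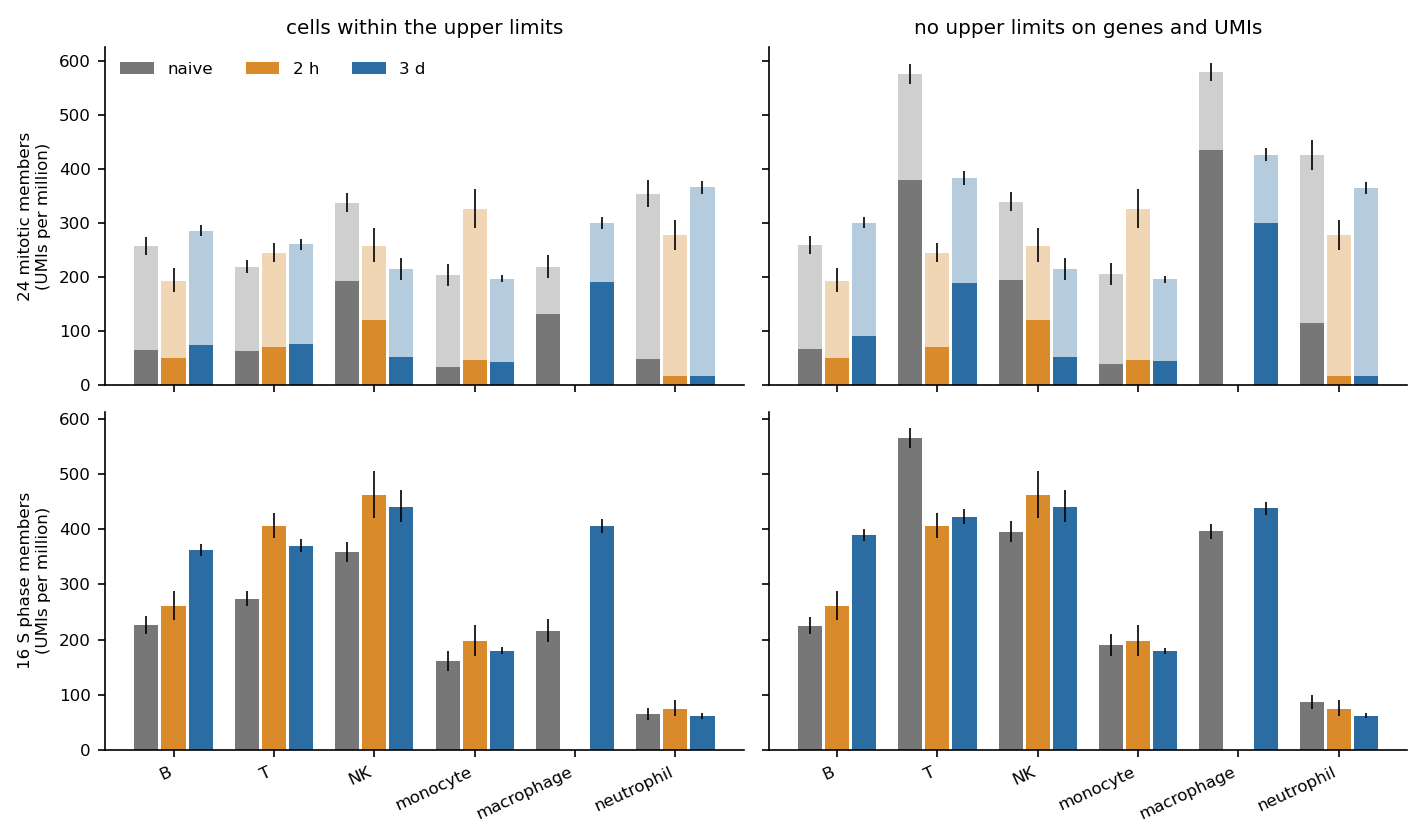
Summed CPM of the 24 mitotic members (top) and 16 S phase members (bottom) by lineage and library, within the upper limits (left) and with no upper limits (right). Bars start at 0, error bars are 95% Poisson intervals, and the dark part of a mitotic bar leaves out Cenpa, Cks2 and Kif23; lifting the limits raises naive T-like cells from 219 to 575 CPM and naive macrophage-like cells from 218 to 579 CPM.

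Within the limits, the S phase set separated lymphocytes from granulocytes more clearly than the mitotic set did. T-like cells had 274, 406 and 371 CPM of S phase RNA in the naive, 2-hour and 3-day libraries, NK-like cells 358, 462 and 441 CPM, and B-like cells 226, 261 and 363 CPM. Monocyte-like cells had 161, 197 and 180 CPM. Neutrophil-like cells had 64.2, 74.0 and 61.0 CPM, the lowest of the named lineages in each library. Their mitotic sum was not low, with 353, 277 and 366 CPM, so that the ratio of mitotic to S phase UMIs was 5.50, 3.74 and 5.99, compared with 0.80, 0.60 and 0.70 in T-like cells. Without Cenpa, Cks2 and Kif23 the ratio was 0.75, 0.23 and 0.28 in neutrophil-like cells and 0.23, 0.17 and 0.20 in T-like cells.

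Cks2 and Kif23 held most of these mitotic UMIs. In neutrophil-like cells Cks2 was at 211, 184 and 192 CPM and Kif23 at 74.9, 57.3 and 123 CPM. The 21 members other than Cenpa, Cks2 and Kif23 were together at 48.2, 16.8 and 17.1 CPM. Of these neutrophil-like cells, 1 was mitotic-rich in naive lungs and 1 at 3 days. Monocyte-like cells had 119.9, 234 and 75.6 CPM of Cks2. The highest Cks2 values were in basophil- or mast-like cells, with 2050.4, 4499 and 1479 CPM in 20, 68 and 111 cells, and none of these cells was mitotic-rich. In B-like cells Cks2 was at 23.0, 37.5 and 24.2 CPM. Cks2 was therefore highest in lineages with few or no mitotic-rich cells.

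Neutrophil RNA also moved between the libraries in other lineages. The 9 neutrophil markers summed to 1012, 5142 and 2106 CPM in naive, 2-hour and 3-day monocyte-like cells, to 376, 1876 and 4172 CPM in NK-like cells and to 241, 2180 and 1408 CPM in B-like cells, compared with 76952 to 157163 CPM in neutrophil-like cells. At most 1 of the 9 markers was at 0 in any of these groups. The part of this RNA in their Cks2 and Kif23 values was not tested. Unnamed clusters, which took 2802 cells at 2 hours, had neutrophil markers at 41169 CPM, Cks2 at 238 CPM and a mitotic sum of 339 CPM.

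Cenpa had another pattern. It was highest in B-like cells, with 160.5 CPM in naive lungs, 97.9 CPM after 2 hours and 174 CPM after 3 days, and T-like cells followed with 108, 95.9 and 119.5 CPM. Monocyte-like cells had 23.97, 27.4 and 39.6 CPM, and neutrophil-like cells 19.2, 18.1 and 33.8 CPM. Kif20b was also higher in B-like cells (16.8, 12.7 and 24.3 CPM) than in neutrophil-like cells (0.89, 1.40 and 0.48 CPM). B-like cells, with 5 mitotic-rich cells in all 3 libraries, thus held more Cenpa than macrophage-like cells at 3 days (48.8 CPM).

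In NK-like cells the usual mitotic markers were lowest at 3 days. Over all NK-like cells, with no upper limits, 4 of 519 naive cells were mitotic-rich and held 70.7% of the mitotic UMIs other than Cenpa, Cks2 and Kif23, 1 of 1011 cells at 2 hours held 27.9%, and at 3 days 0 of 329 were mitotic-rich. Mki67 was at 26.1 CPM in naive lungs, 14.8 CPM after 2 hours and 2.00 CPM after 3 days, and Top2a at 32.9, 37.4 and 5.99 CPM. Without Cenpa, Cks2 and Kif23 the mitotic set was at 193, 120.1 and 52.4 CPM. The S phase set did not go with it (358, 462 and 441 CPM). The whole mitotic set of NK-like cells was lower at 3 days than at 2 hours (log2 ratio -0.27), but higher when cells were called singly from marker UMIs (0.24) or when the mean over cells was taken (0.28). Mcm6 in NK-like cells was at 102, 99.4 and 87.9 CPM, above the T-like cells of the same library (36.1, 49.9 and 42.2 CPM). The NK-like value at 3 days came from 329 cells, 321 of cluster 20 and 8 of cluster 6. Neutrophil markers were at 4172 CPM in these cells.

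Mcm4 (chr16:15623897-15637400 on mm10, minus strand) was highest at 2 hours in T-like, NK-like, B-like, monocyte-like and neutrophil-like cells. T-like cells had 41.1 CPM in naive lungs, 145 CPM at 2 hours and 49.96 CPM at 3 days. NK-like cells had 31.9, 77.8 and 47.4 CPM, and B-like cells 23.0, 59.6 and 41.1 CPM. Monocyte-like cells had 10.4, 40.6 and 12.4 CPM, and neutrophil-like cells 2.68, 35.6 and 7.30 CPM. In T-like cells Mcm6 (36.1, 49.9 and 42.2 CPM), Mcm3 (20.5, 19.7 and 25.8 CPM) and Mcm2 (15.2, 13.7 and 25.3 CPM) were closer between the libraries. Mcm5 was not, and was lowest at 2 hours, with 9.07, 4.45 and 14.0 CPM.

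Compared gene by gene, few members differed strongly between the libraries. A member or gene was counted when its CPM differed by more than 2-fold and the 95% interval of the log2 ratio left out 0, among genes with at least 20 UMIs over both libraries. At 3 days over 2 hours, 5 of 24 mitotic members were higher (Ube2c by 2.30 on the log2 scale, Aurkb by 1.85, Bub1b by 1.56, Ccna2 by 1.24 and Cdc20 by 1.01), whereas 18.6% of all 14339 genes were higher. No mitotic member was lower, against 9.43% of all genes. Of 16 S phase members, Mcm5 (1.498) and Cdc6 (1.04) were higher and Mcm4 (-1.53) was lower. The median log2 ratio was 0.54 for mitotic members, 0.10 for S phase members and 0.31 for all genes, so the shares of members lay near those of all genes.

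The mitotic sum did not show this. Its log2 ratio of 3 days to 2 hours was -0.10, and 0.48 without Cks2 (-0.84), while 20 of the 24 members had a positive ratio. The others were Nusap1 (-0.87), a protein that bundles spindle fibres, Hmmr (-0.43, -1.11 to 0.31) and Top2a (-0.13, -0.41 to 0.16). Mki67 was 0.69 (0.35 to 1.05), Cenpa 0.37 (0.25 to 0.49), Kif23 0.48 (0.31 to 0.66) and Kif20b 0.46 (0.08 to 0.86). The S phase sum had a ratio of 0.10, and of -0.31 without Pcna (0.86). The ratio was below 0 for 7 members: Mcm4, Mcm6 (-0.47), Rrm2 (-0.22), Cdc45 (-0.12), Gins2 (-0.11), Rrm1 (-0.06) and Mcm7, with intervals that held 0 for all but Mcm4 and Mcm6. With no upper limits, 20 members were higher at 3 days than at 2 hours, Top2a at 1.14 and Mki67 at 1.70 among them, and 1 was lower, beside 2834 higher and 1371 lower of all 14577 genes.

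**Figure D5:**
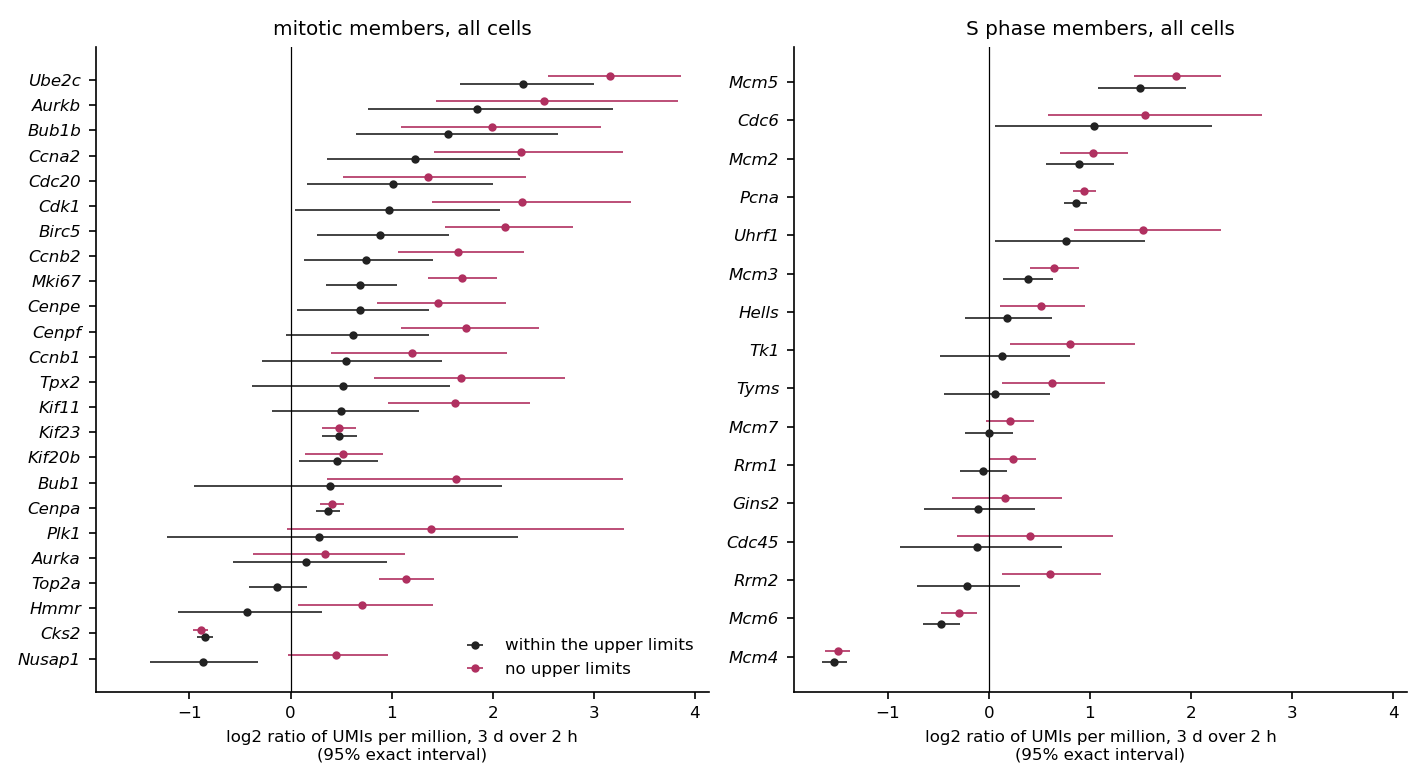
Log2 ratio of CPM at 3 d over 2 h for each mitotic member (left) and S phase member (right) in all cells, with 95% exact intervals, within the upper limits (black) and with no upper limits (red). Most members move to the right once the limits are lifted, such as Top2a from -0.13 to 1.14, whereas Cks2 (-0.84 and -0.89) and Mcm4 stay to the left of 0.

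Against naive lungs, more genes were lower than higher in both transplant libraries. At 3 days 1 mitotic member was higher (Aurkb, against 6.06% of all genes) and 4 were lower (Bub1b, Nusap1, Plk1 and Tpx2, against 29.0%), and no S phase member was counted. At 2 hours no mitotic member was higher (7.18% of all genes were) and 7 were lower, Bub1b, Cdc20, Cdk1, Kif11, Plk1, Tpx2 and Ube2c, against 39.4%. Of the S phase members Mcm4 was higher and Mcm5 lower. The members' medians at 2 hours over naive were -0.75 (mitotic) and -0.18 (S phase), and that of all genes was -0.65. With no upper limits 29 members were lower at 2 hours than in naive lungs, beside 6195 of all 14835 genes. At 3 days 13 were lower, beside 4846 of 16008, a share of members near that of all genes.

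Within lineages the depth at 2 hours left fewer members to compare between 3 days and 2 hours. In B-like cells 16 mitotic members could be compared and none was counted, while Uhrf1 (2.83), Mcm5 (2.24) and Mcm2 (1.16) of 13 S phase members were higher, against 13.6% of all genes higher and 6.62% lower. In T-like cells Cdc20 and Mcm5 (1.65) were higher (14.5% of all genes), and Cenpf, Nusap1, Mcm4 (-1.53) and Rrm2 (-1.79) were lower (7.04%). With no upper limits 16 of 39 T-like members were higher, beside 1809 of all 11144 genes, and Mki67 stood at 2.20 and Top2a at 0.94.

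Among NK-like cells Mcm2 (1.65) was higher and Top2a (-2.64) lower of 14 members compared, with 12.8% and 6.28% of all genes. Among monocyte-like cells Ube2c (2.86) and Kif23 (1.08) were higher, against 11.9%, and Cks2 (-1.63), Top2a (-1.498) and Mcm4 (-1.71) were lower, against 7.40%. Monocyte-like Ube2c went from 2.03 to 14.8 CPM with no mitotic-rich cell at either time. These cells were mainly nonclassical at 2 hours (cluster 10, 559 cells) and classical at 3 days (cluster 7, 811 cells). Among neutrophil-like cells Kif23 (1.10) was higher, against 13.4%, and Mcm4 (-2.29) was lower, against 6.38%. Mcm4 was counted in 3 of these lineages, and Mcm2, Mcm5, Top2a and Kif23 in 2 each.

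The largest share of members was counted in macrophage-like cells at 3 days over naive. Within the limits 8 of 23 mitotic members were higher, with Top2a at 3.53, Ube2c at 3.49 and Cenpa at 2.38, and 10 of 15 S phase members were higher, with Mcm5 at 3.86, Mcm2 at 2.94 and Hells at 2.84. The background was 13.4% of all genes higher and 23.5% lower. Bub1b (-2.90) and Tpx2 (-1.06) were lower. With no upper limits 2 members were higher and 5 lower, so the count rested on the limits, which removed most naive cells of this lineage.

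Other genes of the pathway were read from lists chosen by function. Of 42 further mitotic genes that could be compared between 3 days and 2 hours, 4 were higher (Cdca8, Ckap2l, Ncapd2 and Nek2) and 1 was lower (Sgo1), and of 34 further replication genes 1 was higher (Orc1). Both shares lay below the 18.6% of all genes that were higher. The median log2 ratios were 0.39 and 0.12. At 3 days the mitotic-rich cells held 22.0% of the UMIs of the further mitotic genes and 11.7% of those of the further replication genes, compared with 2.75% of all UMIs. Smc4, a condensin subunit, and Pttg1, securin, had the most UMIs of the former list, with 165, 162 and 107 CPM and 53.3, 45.6 and 58.3 CPM. Of the latter, Slbp, which binds histone mRNA, had 81.3, 112 and 71.2 CPM, and Nasp, a histone chaperone, had 66.0, 38.3 and 47.0 CPM. The further genes were thus concentrated in the same cells. The mitotic set had 33.0% of its summed UMIs in them, but its members chose these cells, so the lists are not on equal terms with it.

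Genes that act before S phase were less concentrated in the mitotic-rich cells than these lists. At 3 days these cells held 4.44% (4.20 to 4.70) of the UMIs of the G1 cyclins and kinases and 2.91% (2.74 to 3.08) of those of the CDK inhibitors, compared with 2.75% of all UMIs. At 2 hours they held 0.632% of the G1 UMIs, compared with 0.233% of all UMIs. Ccnd3 and Ccnd2, the D-type cyclins of lymphoid and myeloid cells, were at 384, 139.2 and 124 CPM and at 241, 188 and 154 CPM. Of this list Ccnd1 and Cdk2 were higher and Ccne2 lower at 3 days than at 2 hours. Of the transcription regulators of the cycle, 2 of 18 were higher (E2f2 and E2f8), and 6.05% of their UMIs were in mitotic-rich cells.

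The genes that restrain division did not move as a group. Of 7 CDK inhibitors that could be compared between 2 hours and naive lungs, Cdkn1a, Cdkn1b and Cdkn2d were past 2-fold higher and Cdkn2c and Cdkn3 past 2-fold lower at 2 hours. Of all genes, 7.18% were higher and 39.4% lower in that comparison. Cdkn3 was at 2.05, 0.653 and 0.989 CPM and Cdkn2c at 7.66, 2.89 and 5.73 CPM, both highest in naive lungs. Cdkn1b, the inhibitor p27, was at 109 CPM in naive lungs, 581 CPM after 2 hours and 150.2 CPM after 3 days, and was lower at 3 days than at 2 hours by more than 2-fold. Cdkn1a, the inhibitor p21 and a target of p53, was at 104, 239 and 324 CPM. Btg1 and Btg2, antiproliferative genes, were at 1270.5, 6892 and 1878 CPM and at 487, 1491 and 568 CPM, both lower at 3 days than at 2 hours, and Mdm2 was higher (39.5 and 139.1 CPM). Mitotic-rich cells held 1.66% of the UMIs of that list at 3 days, less than their 2.75% of all UMIs. A further list of 7 genes held chromatin genes, among them H2afz and Hmgb2, and also tubulin genes. Of this list the tubulin gene Tuba1b was higher and the tubulin gene Tubb5 lower at 3 days than at 2 hours. Mitotic-rich cells held 12.7% of the UMIs of the list at 3 days.

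In all, 8 members overlap another counted gene in the annotation, namely Ube2c (Tnnc2), Nusap1 (Oip5), Ccna2 (Exosc9), Cdc20 (Elovl1), Mcm7 (Cops6 and Ap4m1), Gins2 (Gse1), Cdc45 (Ufd1) and Tk1 (Afmid), and their counts could include or lose reads of the partner. UMIs tag an end of a transcript and not its length, so levels of different genes were compared as counts only. In cluster 14, whose endothelial markers were joined by epithelial genes among its top genes, the mitotic set was at 46.8, 295 and 201 CPM in 94, 46 and 327 cells. No comparison was made there.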

How the data were processed

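The deposited values were unnormalized UMI counts per gene and droplet called as a cell, written by the authors with Cell Ranger 7.1.0 (naive) or 6.0.0 (transplants) on mm10, per the file headers. The processing notes list Cell Ranger 6 and Seurat 4. The methods name a 3′ kit and the labels a 5′ and a 3′ kit, and the setting for intronic reads is not given in the sources. The libraries held 2921, 10328 and 9016 droplets and 28538529, 10749100 and 70750470 UMIs. Counts of 277 antibody features in each transplant library were not used.

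Cells within the limits of the methods and cells over the upper limits were clustered together in Seurat 5.3.0 with sctransform 0.4.2 (mitochondrial share and UMI count regressed out, 30 principal components, resolution 0.8, no integration), leaving out 62 cell cycle and histone genes among 3000 variable features. A cluster was named where the median log2 ratio (CPM plus 10) of a marker list and at least 3 of its genes exceeded 1. Cluster 0, with 2801 cells at 2 hours, passed for neutrophils (median 1.57, 7 of 9 genes) but was still left unnamed. Its top 10 genes included the epithelial gene Scgb1a1 and lacked neutrophil markers. Neutrophil-like values at 2 hours therefore leave cluster 0 out, except where unnamed clusters were added. Scrublet in scanpy 1.11.5 called 48, 403 and 278 doublets, removed only in an alternative. UMIs of the members were summed per lineage and library and set over the total UMIs of the same cells. Intervals are exact (Poisson for CPM, conditional binomial for ratios, Clopper-Pearson for shares, 95%), computed in scipy 1.17.1, and cover counting error only. A share of 0 allows up to 3 counts. To match depth, 500 or 1000 UMIs were drawn from each cell that held as many. The ratios and intervals were tested on simulated Poisson counts, the counting error that they assume. UMIs concentrated in few cells were not simulated, and the intervals do not cover the spread between cells.

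The members, lists and tests were chosen with earlier results of these data known. Named in full were the 6 members of each set with the most UMIs (with Mki67, Top2a and Pcna), and members whose ratio of 3 days to 2 hours ran against the sum of their set. Other members were named for a difference past 2-fold or for their share of UMIs in mitotic-rich cells. Of the other lists, the genes past 2-fold and those with the most UMIs were named. Mitotic-rich cells, sums without Cenpa, Cks2 and Kif23 or without Mcm4, unnamed clusters taken as neutrophils, and 3 or more members among 1000 UMIs with no upper limits were chosen after seeing the data.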

Additional observations from a re-analysis of the deposited data

Results flagged for a closer look

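The mitotic sum went in opposite directions between lineages at 3 days over 2 hours. The log2 ratio was 0.56 in B-like cells and 0.40 in neutrophil-like cells, but -0.27 in NK-like and -0.73 in monocyte-like cells. The NK-like ratio was above 0 as a mean over cells (0.28), with cells called singly (0.24) and with cycle genes in the clustering (0.078). The S phase sum had a ratio of 0.48 in B-like cells and -0.13 in T-like cells, the latter 0.060 with no upper limits. Each lineage had 1 library per time, so these differences between lineages were not tested. In monocyte-like cells the ratio went with Cks2 (234 CPM at 2 hours, later 75.6 CPM), and the ratio without it was 0.41. With no upper limits, the mitotic set was at 293.0 CPM in nonclassical cluster 10, mainly from 2 hours. It was at 168.3 CPM in classical cluster 7 and 302.8 CPM in nonclassical cluster 15, both mainly from 3 days. The part of the monocyte subsets in the ratio was not tested.

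The transplant libraries also held antibody counts that enter no comparison here. The 277 antibody features summed to 879206 UMIs at 2 hours and 1248913 UMIs at 3 days, and the naive library had no such features.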

How the results depend on the processing

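Of 185 values computed under the alternatives for 29 results, 111 stayed within the limits set for a change and 52 moved beyond them. The other 22 were counted as reversed in direction, but these 22 do not include every change of sign. The mitotic ratio of T-like cells without Cenpa, given below, changed sign and was counted among the 52. Removing called doublets and taking CPM outside ribosomal protein, mitochondrial and immunoglobulin genes moved no result beyond the limits. The cause of the other changes was not tested beyond what each alternative leaves out.

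In log2 ratios, the order below is 3 days over 2 hours, 3 days over naive and 2 hours over naive for sums over all cells. The mitotic sums were -0.10, 0.06 and 0.16, and with no upper limits they were 0.21, -0.35 and -0.57, with all droplets 0.21, -0.33 and -0.54, and without Cenpa, Cks2 and Kif23 0.59, -0.24 and -0.83. Without Cks2 it was 0.48 at 3 days over 2 hours and -0.45 at 2 hours over naive, and as a mean over cells 0.15 and 0.29 at 3 days over 2 hours and over naive. The S phase sums were 0.10, 0.16 and 0.06, and with no upper limits they were 0.29, -0.27 and -0.56, with all droplets 0.29, -0.25 and -0.53, and without Pcna -0.31, -0.067 and 0.24. Without Mcm4 they were 0.46 at 3 days over 2 hours and -0.28 at 2 hours over naive, and as a mean over cells 0.22 and -0.029.

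Within lineages, at 3 days over 2 hours, the mitotic ratio of T-like cells (0.09) was 0.65 with no upper limits, 0.23 as a mean over cells and -0.074 without Cenpa, and that of B-like cells (0.56) was 0.22 without Cenpa. For NK-like cells (-0.27) it was 0.28 as a mean over cells, 0.24 when cells were called singly, 0.078 with cycle genes in the clustering, -0.53 without Cenpa and -1.20 without Cenpa, Cks2 and Kif23. For monocyte-like cells (-0.73) it was 0.41 without Cks2, -0.36 when called singly and -0.095 without those 3 genes, and for neutrophil-like cells (0.40) 0.92, 0.16 and 0.029, and 0.22 with the unnamed clusters added. The S phase ratio of T-like cells (-0.13) was 0.060 with no upper limits and -0.41 without Pcna. For NK-like cells (-0.07) it was 0.14 both as a mean over cells and with cycle genes in the clustering, and -0.24 without Pcna. For monocyte-like cells (-0.13) it was 0.12 as a mean over cells, 0.25 when called singly and -0.77 without Pcna, and for neutrophil-like cells (-0.28) -0.97 without Pcna. For macrophage-like cells the contrast was 3 days over naive. Their mitotic ratio (0.46) was -0.44 with no upper limits, 0.71 without Cks2 and 0.64 when called singly. Their S phase ratio (0.91) was 0.15 with no upper limits, 1.54 without Pcna and 0.76 when called singly. Even with no upper limits, 19 naive cells and 651 cells at 3 days were called macrophages singly, so those ratios rest on few naive cells.

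The log2 ratio of the shares of cells with 2 or more mitotic members (0.46) was 1.09 with all droplets, 1.46 for 3 or more members, 1.36 for 3 or more among 1000 UMIs with no upper limits, 1.70 without Cenpa, Cks2 and Kif23 and 3.95 without thinning. That of S phase members (0.78) was 0.055 at 1000 UMIs and 3.76 without thinning. With no upper limits the members past 2-fold went from 8 to 21 (3 days over 2 hours), 5 to 13 (3 days over naive), 9 to 30 (2 hours over naive), 3 to 7 in B-like, 6 to 17 in T-like and 20 to 7 in macrophage-like cells. Of all genes, 2834 were then higher and 1371 lower of 14577 at 3 days over 2 hours. Over naive they were 1013 and 4846 of 16008 at 3 days and 1132 and 6195 of 14835 at 2 hours. B-like cells had 1461 and 711 of 10877, T-like cells 1809 and 740 of 11144, and macrophage-like cells 1556 and 3299 of 12065. The members compared rose from 29 to 33 in B-like, 28 to 39 in T-like and 38 to 40 in macrophage-like cells. With at least 100 UMIs required, 5 of 22 members were past 2-fold at 2 hours over naive. In T-like cells 2 of 15 were, and in NK-like cells 0 of 6. Of all genes, 665 were then higher and 3969 lower of 10987, 971 and 464 of 8081, and 479 and 242 of 4361. With at least 1 UMI, 9 of 40 members were past 2-fold in NK-like cells, which had 2 of 14. Of all 14301 genes there, 1226 were higher and 755 lower. No paired analysis was possible because each condition had 1 library.

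The depth at 2 hours (median 878 UMIs) limits every low member there, and lineages with few cells at 2 hours, macrophage-like cells above all, could not be compared. Differences between libraries cannot be told apart from differences between the pooled mice or preparations.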
